A study of Mus musculus with 12 samples.

Results

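Long noncoding RNAs (lncRNAs) are transcripts without a long reading frame, and some of them are bound by Argonaute (Ago) loaded with a small RNA. The peaks described here are the places on lncRNAs where a small RNA was joined to its target in adult mouse forebrain. They were chosen as all annotated peaks of the class lincRNA (intergenic lncRNA), antisense or bidirectional-promoter lncRNA, without the gene Gm42418, which had 31 peaks in excitatory neurons, 257 in forebrain reps 5-7, 1613 in forebrain reps 1-4 and 2 in IgG. The rule gave 3644 of 250567 peaks.

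The study used chimeric reads, in which the small RNA carried by Ago is ligated to the target it sits on, so that each peak names both partners. All groups were C57BL/6 forebrain. Excitatory neurons (3 libraries) were sampled by anti-myc pull-down of a tagged Ago2 that Camk2a-CreERT2 switches on, and forebrain reps 5-7 (3 libraries) and forebrain reps 1-4 (4 libraries) by anti-Ago2, with control IgG (2 libraries) as the negative control. The labels state the same treatment for every sample, tamoxifen at 2 mg daily for 5 days. Harvest followed 14 to 21 days later, at 10 to 12 weeks of age, and 3 rounds of UV are given for every sample. Whether mice of the 3 other groups had the tagged allele is not stated. Camk2a-CreERT2 is active in forebrain excitatory neurons, and endogenous untagged Ago2 of these and all other cells is not pulled down by anti-myc.

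Each list was called once over its pooled libraries, on mm10, so it is 1 observation with no spread between replicates. Excitatory neurons had 766 peaks, reps 5-7 had 3611, reps 1-4 had 246180 and IgG had 10. The tests below compare these lists, not the conditions, and their intervals cover counting error only. Among marker genes in coding and untranslated peaks, the excitatory list had 13 peaks on 1 of 5 excitatory neuron markers, 0 on inhibitory neuron, astrocyte, microglia and vascular markers, and 4 on 1 of 5 oligodendrocyte markers. The reps 5-7 list had 24 peaks on excitatory neuron markers and 39 on astrocyte markers, and reps 1-4 had 548 and 770. The calling summaries of the excitatory and reps 5-7 lists share 3 library numbers whose meaning is not stated.

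A small RNA guides Ago mainly through its seed, bases 2 to 8 from the 5′ end, which pairs with the target. lncRNAs that hold many or unusually extended sites can bind a miRNA without being silenced like a messenger RNA, and Cyrano, the gene listed here as 1700020I14Rik, is known for a site that promotes the decay of miR-7. Malat1 is an abundant nuclear RNA of the speckles, and Meg3 is a maternally expressed imprinted RNA of a locus that also encodes many brain miRNAs.

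The mature miRNAs on which the results below turn are shown with the seed in capitals, grouped by shared seed. They come from RefSeq (GRCm38.p6), and of 184 small RNA names on the lncRNA peaks of reps 1-4, 158 matched, covering 2479 of 3586 peaks. The miR-29 names head the peaks found in all 3 Ago lists:
miR-29a-3p: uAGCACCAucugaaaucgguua
miR-29b-3p: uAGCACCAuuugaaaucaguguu
miR-29c-3p: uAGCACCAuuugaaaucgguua
The miR-30 names crowd the main place on 1700020I14Rik:
miR-30c-5p: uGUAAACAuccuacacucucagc
miR-30e-5p: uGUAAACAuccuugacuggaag
The miR-7 names are shown because Cyrano is known for a miR-7 site:
miR-7a-5p: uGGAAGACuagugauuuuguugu
miR-7b-5p: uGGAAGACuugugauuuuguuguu
The let-7 family, here let-7c, had a low share on lncRNAs in reps 1-4, and the remaining 4 are leading or called names:
let-7c-5p: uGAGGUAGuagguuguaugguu
miR-9-5p: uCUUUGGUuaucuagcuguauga
miR-26a-5p: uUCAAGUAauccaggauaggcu
miR-125b-5p: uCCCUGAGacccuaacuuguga
miR-129-2-3p: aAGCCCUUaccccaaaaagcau

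lncRNA peaks were a small share of every list. They were 3 of 766 peaks in excitatory neurons (0.392%, Wilson 95% interval 0.133 to 1.15%), 55 of 3611 in reps 5-7 (1.52%, 1.17 to 1.98%) and 3586 of 246180 in reps 1-4 (1.46%, 1.41 to 1.505%). The IgG list held 0 of 10, which allows a share of up to 30%. The share in excitatory neurons was lower than in reps 5-7 (difference -1.13 percentage points, odds ratio 0.254, adjusted p = 0.0207, two-sided Fisher's exact test, Benjamini-Hochberg over annotation classes). It was also lower than in reps 1-4 (-1.07 points, odds ratio 0.266, exact adjusted p = 0.0244). Over all annotation classes 41.7% passed in the first comparison and 41.7% in the second, so a passing class was common. The reps 5-7 and reps 1-4 shares had an odds ratio of 1.05 (exact adjusted p = 0.917, with 45.8% of classes called). In such bulk material, fewer cells of a type and less of an RNA per cell cannot be told apart. The lower excitatory share rests on 3 peaks, and it did not pass with only peaks at or above the median score (exact adjusted p = 0.143 against reps 5-7 and 0.143 against reps 1-4). Against reps 1-4 it also did not pass once overlapping peaks were merged (exact adjusted p = 0.0893) or once lncRNA peaks inside protein-coding genes were left out (adjusted p = 0.131).

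The 3 peaks of excitatory neurons were all of miR-29. On 1700020I14Rik, miR-29b-3p had a score of 10 at chr2:119604635-119604653 and miR-29a-3p a score of 4 at chr2:119604635-119604651. On Gm26917, miR-29a-3p had a score of 3 at chr17:39843000-39843016. The score is the authors' whole-number value per peak, never below 3, with no stated definition. All 3 recurred in reps 1-4, as same small RNA and at least 1 overlapping base, as did 563 of the 582 CDS and UTR peaks of the excitatory list (96.7%; p = 1, Fisher's exact test). 1700020I14Rik and Gm26917 were the only lncRNA genes with peaks in all 3 Ago lists. The excitatory peak of Gm26917 overlapped the annotated gene by only 3 bases. No peak of Malat1 was in the excitatory list (0 of 766, which allows a share of up to 0.392%).

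The 55 peaks of reps 5-7 lay on 5 genes and carried 28 small RNAs. Malat1 and 1700020I14Rik held 25 each, Gm26917 held 3, and Gm26694 and Meg3 held 1 each. The top scores were 17, 16 and 15, all miR-124-3p on Malat1, followed by 12 for miR-29b-3p on 1700020I14Rik. On Gm26917 the 3 peaks were miR-29a-3p (score 11), miR-29c-3p (score 6) and miR-29b-3p (score 4). On Gm26694 the peak was let-7e-5p and on Meg3 it was miR-181a-5p, both with a score of 3.

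Peaks of reps 5-7 were found again in reps 1-4 less often on lncRNAs than on messenger RNAs when the small RNA had to match. With the same small RNA, 45 of 55 lncRNA peaks overlapped a reps 1-4 peak (81.8%, 69.7 to 89.8%), against 2183 of 2383 peaks in coding sequence (CDS) and untranslated regions (UTRs) (91.6%; p = 0.0235, two-sided Fisher's exact test). With any small RNA the shares were 54 of 55 (98.2%) and 96.0% (p = 0.723, Fisher's exact test). The 10 peaks not found with the same small RNA were on Malat1 (7) and 1700020I14Rik (3), the 2 genes with the most peaks in reps 5-7. Their widths ran from 1 base, for let-7f-5p on 1700020I14Rik, to 52 bases, for miR-125b-5p on Malat1. Some lay beside a reps 1-4 peak of the same name on Malat1. Thus miR-26a-5p at chr19:5800365-5800375 lay beside chr19:5800362-5800362, and miR-124-3p at chr19:5799957-5799964 beside chr19:5799951-5799955. On 1700020I14Rik, let-7d-5p and let-7f-5p lay directly before a reps 1-4 site that held both names (chr2:119602946-119602973).

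In reps 1-4, 211 genes had 3586 peaks: 3302 lincRNA, 282 antisense and 2 bidirectional-promoter. The distribution was very uneven, with 81 genes at 1 peak, a median of 2, and 64.7% of peaks on 5 genes. Those were Malat1 (803 peaks), Gm28928 (624), Lncpint (336), Meg3 (288) and 1700020I14Rik (269). The next gene, 9530059O14Rik, had 60. The top 10 of genes (71.5% of peaks) were completed by Gm26917 (54), Gm15802 (46), Gm26694 (43) and C130071C03Rik (41), the host gene of a miR-9 hairpin. By summed score Malat1 took 40.8% and 1700020I14Rik 16.2% of the lncRNA total, while Gm28928 took 8.16%.

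**Figure D1:**
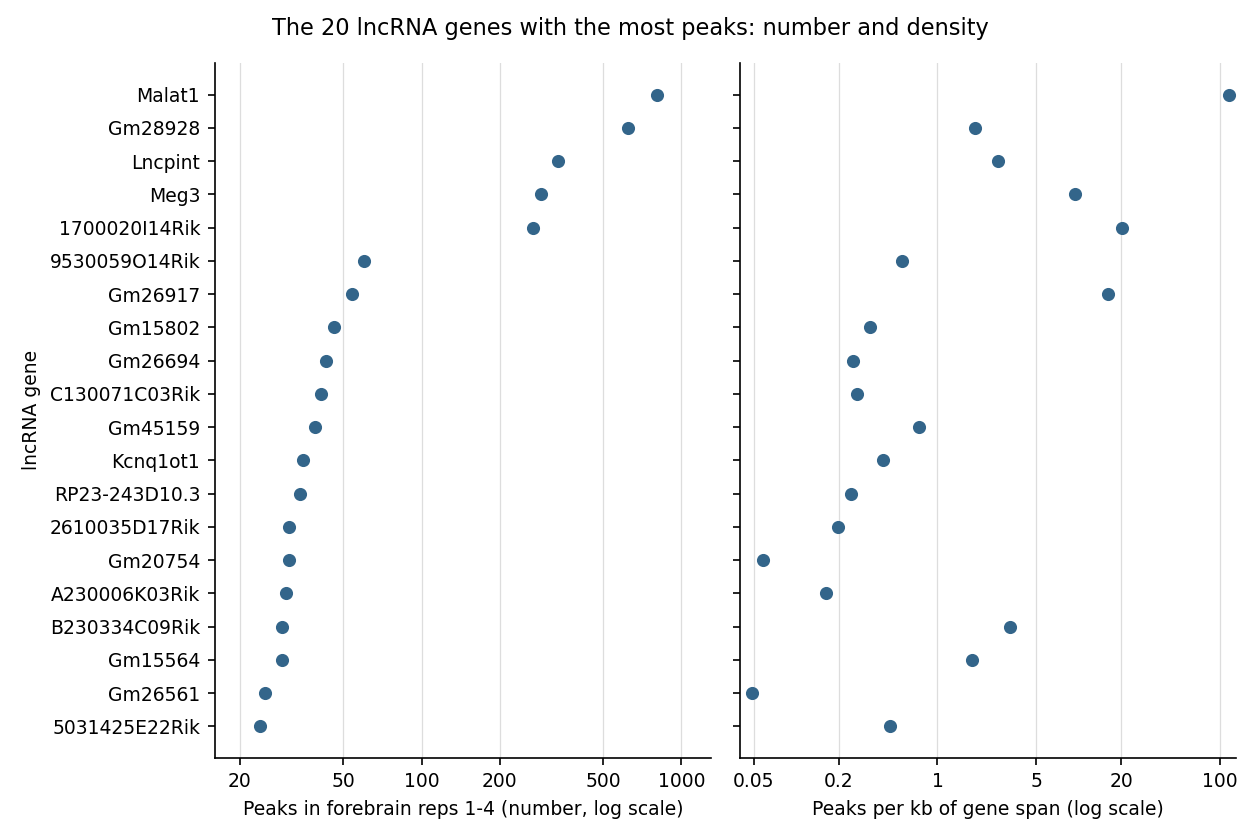
Peaks in forebrain reps 1-4 (left, log axis) and peaks per kb of the annotated gene span (right, log axis) for the 20 lncRNA genes with the most peaks. Malat1 leads both, at 803 peaks and 115 peaks per kb, whereas Gm28928 has 624 peaks over 340 kb.

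Density separated the 5 leading genes. Malat1 had 115 peaks per kb over 6.98 kb (chr19:5795691-5802672, minus strand), 1700020I14Rik had 20.4 over 13.2 kb (chr2:119594298-119607502, plus strand) and Meg3 had 9.38 over 30.7 kb (chr12:109541002-109571721, plus strand). Lncpint, first described as a p53-induced transcript, had 2.69 over 125 kb (chr6:31093560-31218474, minus strand), and Gm28928 had 1.83 over 340 kb (chr1:124505758-124846039, minus strand). The annotation gives the whole transcript as the feature, so exon and intron cannot be told apart for these peaks.

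Part of the class lies inside protein-coding genes. Of the 3586 peaks, 919 (25.6%, 24.2 to 27.1%) lay in the RefSeq span of another gene that is protein-coding and on the same strand. All 624 peaks of Gm28928 lay within Dpp10, a potassium channel subunit gene. Likewise all 46 peaks of Gm15802 lay within Igsf11, all 39 of Gm45159 within Dlg2, a postsynaptic scaffold gene, all 34 of RP23-243D10.3 within Tnrc6a, an Ago partner gene, and all 43 of Gm26694 within Fbxl16. In bulk peaks the lncRNA and the host transcript cannot be told apart at these places. Another 21 peaks lay opposite to a coding gene, and for 206 the strand of the coding gene was not known. RefSeq also lists 10 of the 211 genes as protein-coding themselves (55 peaks).

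The strand of the coding gene was known for only part of the antisense class. Of 282 antisense peaks, 21 (7.45%) lay opposite to a coding gene with known strand, 55 (19.5%) in a coding gene of unknown strand and 124 (44.0%) outside coding genes. Another 82 (29.1%) lay on the same strand as a coding gene, 46 of them on Gm15802 and 29 on B230334C09Rik within Lrrc7, a postsynaptic scaffold gene. The other leading antisense genes were Kcnq1ot1 (35 peaks), the imprinted transcript antisense to Kcnq1, Gm15564 (29) and A830082K12Rik (20). Gm15564 stood apart: its 29 peaks lay in 1 site of 76 bases (chr16:35981688-35981763, minus strand), each of another small RNA, led by miR-125b-5p with a score of 87. The 2 bidirectional-promoter genes were 4632427E13Rik (miR-124-3p) and RP23-383A10.9 (miR-9-5p), with 1 peak each and a score of 3.

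Most places held a single small RNA, and the most crowded ones lay on few genes. Merging overlapping peaks gave 2140 sites, of which 1837 (85.8%) held 1 small RNA and 28 held at least 10. Those 28 lay on 6 genes: Malat1 (18), Meg3 (4), 1700020I14Rik (3), and Gm15564, Gm26561 and Gm26694 with 1 each. Malat1 had 58 sites, 26 of them with at least 5 small RNAs, and up to 59 at 1 site. That site is a chain of 108 overlapping peaks over 638 bases (chr19:5797969-5798606). Merging joins such chains, so the small RNAs of a wide site need not share 1 place. Gm28928 had 543 sites and Lncpint 288, with at most 4 small RNAs at a site on either. Of 303 sites with at least 2 small RNAs, 111 held at least 2 names with the same seed. This is a minimum, since only 158 of 184 names had a sequence.

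On Malat1 the peaks covered nearly the whole transcript. In reps 1-4, 34 of 35 windows of 200 bases held a peak, and the fullest, starting 3.8 kb from the gene start, held 63 (7.85%). The highest score of any lncRNA peak, 1106, was miR-124-3p at chr19:5798779-5798783, inside that window. Other miR-124-3p peaks had scores of 619 (chr19:5798748-5798750) and 426 (chr19:5800011-5800011). In reps 5-7, 16 of 35 windows held a peak, and a miR-124-3p peak with a score of 16 (chr19:5798770-5798785) covered the same place as the 1106 peak.

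**Figure D2:**
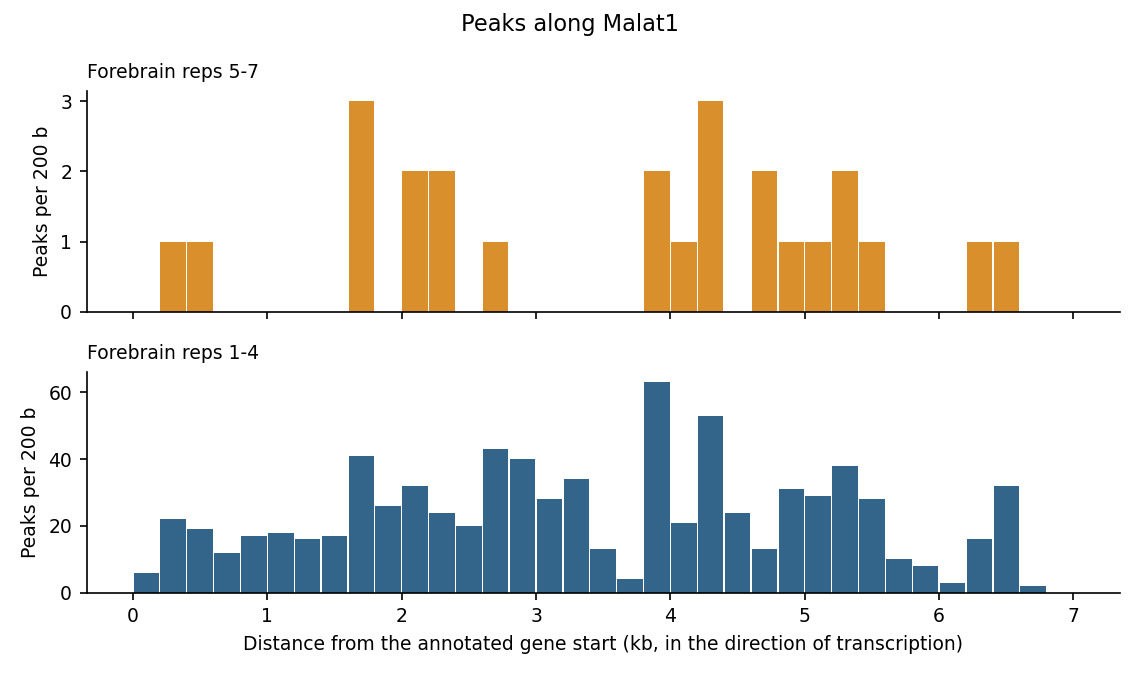
Peaks per 200 bases along Malat1 (x axis, distance in kb from the annotated start in the direction of transcription; y axis, number of peaks) in forebrain reps 5-7 (top, 25 peaks) and reps 1-4 (bottom, 803 peaks). The fullest reps 1-4 window, at 3.8 kb, holds 63 peaks.

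On 1700020I14Rik the peaks gathered toward the far end. The RefSeq record, Oip5os1, ends at position 119600746, and 241 of 269 reps 1-4 peaks (89.6%) and 25 of 25 reps 5-7 peaks lay beyond it, in the longer annotated feature. The fullest window started 10.2 kb from the gene start in all 3 lists, with both excitatory peaks, 12 of 25 reps 5-7 peaks (48%) and 45 of 269 reps 1-4 peaks (16.7%). The merged site there (chr2:119604522-119604661) held 35 small RNAs in reps 1-4, among them miR-29a, b and c and miR-30a, b, c, d and e. Its top score was 225 for miR-124-3p, with 224 for miR-29b-3p and 209 for miR-29a-3p. In reps 5-7 the same site had miR-29b-3p (12), miR-30e-5p (11), miR-29a-3p (10) and miR-30c-5p (7).

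**Figure D3:**
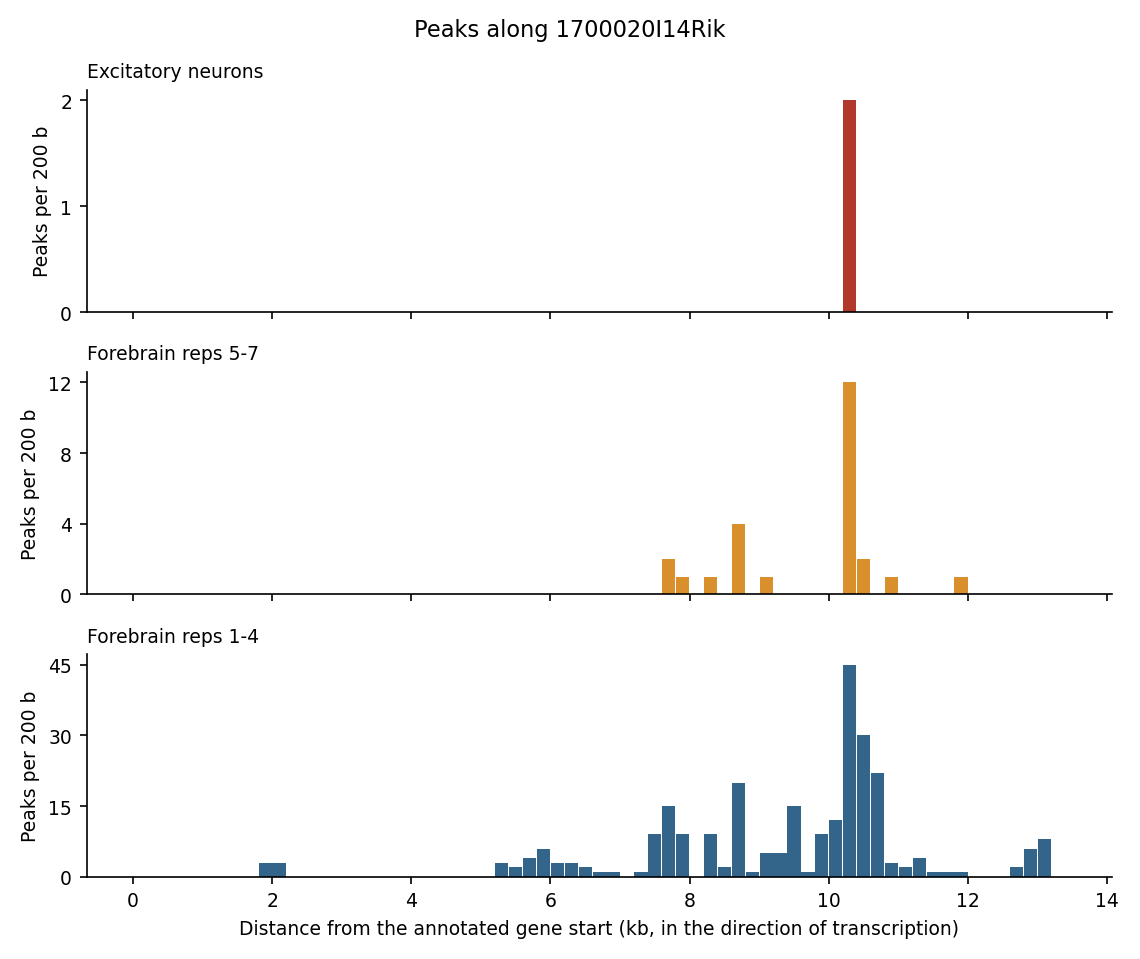
Peaks per 200 bases along 1700020I14Rik (x axis, distance in kb from the annotated start in the direction of transcription; y axis, number of peaks) in excitatory neurons (top, 2 peaks), forebrain reps 5-7 (middle, 25 peaks) and reps 1-4 (bottom, 269 peaks). The window at 10.2 kb is the fullest in each list.

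Other places on 1700020I14Rik were led by other families. At chr2:119604738-119604823 a reps 1-4 site of 18 small RNAs had the gene's highest score, 338 for miR-129-2-3p, and reps 5-7 had miR-129-2-3p there with a score of 7. At chr2:119602946-119602973, 28 bases held 9 peaks with 1 seed, the 8 let-7 names and miR-98-5p, summed score 221. In reps 5-7, let-7g-5p (score 3) and miR-9-5p (score 3) overlapped it, and let-7d-5p (score 3) and let-7f-5p (score 4) lay directly before it. The miR-7 peaks lay at chr2:119602146-119602162 for miR-7a-5p (score 37) and chr2:119602147-119602165 for miR-7b-5p (score 16) in reps 1-4, and reps 5-7 had miR-7b-5p there with a score of 3. Whether this place is the known miR-7 site of Cyrano was not tested. Lower-scoring miR-7 peaks lay at chr2:119599957-119599991, with scores of 4 and 3. Of all lncRNA genes in reps 1-4, 1700020I14Rik had 4 of the 8 miR-7 peaks, and the other 4 had scores between 3 and 7.

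Gm26917 (chr17:39843014-39846341, plus strand, no RefSeq match) had a miR-29 peak at its edge in every Ago list. In reps 1-4 the peak there had a score of 660 for miR-29a-3p, 523 for miR-29b-3p and 300 for miR-29c-3p, and each overlapped the annotated gene by 2 bases. The excitatory peak overlapped it by 3 bases, and the reps 5-7 peaks by 2 or 3. The 6 reps 1-4 peaks that begin before the annotated start held 71.8% of the gene's summed score, so most of this signal lay at the boundary of the annotation. Gm26917 and the left-out Gm42418 are 617 bases apart. Whether the peaks at the edge belong to a transcript of either gene was not tested.

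Between lists, 2 of 35 tested lncRNA genes held a larger share in reps 5-7 than in reps 1-4, and 1 a smaller one. 1700020I14Rik had 25 of 3611 peaks in reps 5-7 and 269 of 246180 in reps 1-4 (0.692% and 0.109%, odds ratio 6.37, adjusted p = 2.11e-09, Fisher's exact test over all genes). Malat1 had 25 and 803 (0.692% and 0.326%, odds ratio 2.13, exact adjusted p = 0.0495). Gm28928 had 0 in reps 5-7, which allows a share of up to 0.0831%, and 624 in reps 1-4 (0.253%, exact adjusted p = 0.0262). Over all 4132 genes tested 0.653% were called higher and 0.678% lower. Lncpint had 0 and 336 peaks (exact adjusted p = 0.441), Meg3 1 and 288 (adjusted p = 1) and Gm26917 3 and 54 (adjusted p = 0.762).

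The lists differ in size and in make-up, and the calls differed when these were changed. Intron peaks were 47.6% of reps 1-4 peaks, 6.04% of reps 5-7 peaks and 4.05% of excitatory peaks. Against an equal number of the highest-scoring reps 1-4 peaks, Gm28928 had too few peaks to be tested and the other 2 genes did not pass: 1700020I14Rik was 0.0554 points higher (exact adjusted p = 1) and Malat1 was 0.609 points lower (-0.609, adjusted p = 0.207) in reps 5-7. With rRNA and Gm42418 peaks left out, Gm28928 no longer passed (exact adjusted p = 0.0580), and with intron peaks left out Malat1 did not (adjusted p = 1). In the excitatory list no lncRNA gene passed against reps 5-7 (2 tested, 1 at an unadjusted p under 0.05, which was Malat1 with 0 and 25 peaks) or reps 1-4 (35 tested, 0 at an unadjusted p under 0.05). Over all genes 9.38% passed higher and 12.5% lower against reps 5-7, and 0.268% higher and 0 lower against reps 1-4.

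miR-124-3p, a neuronal miRNA, was the leading small RNA on lncRNAs, with 967 of 3586 peaks in reps 1-4 (27.0%). It was followed by miR-9-5p (330), miR-26a-5p (251), miR-125b-5p (185), miR-128-3p (172), miR-29a-3p (149), miR-29b-3p (130), miR-9-3p (70), miR-30c-5p (60) and miR-181a-5p (55). By seed, miR-29 had 329 peaks on 62 genes and the 9 names with the let-7 seed had 190 peaks on 40 genes. Only 2 of the 3586 peaks were not of a miRNA, both of tRNA fragments, on Lncpint and B230208H11Rik.

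Against CDS and UTR peaks of the same list, 11 of 201 small RNAs had a larger share on lncRNAs and 11 a smaller one (5.47% and 5.47% of those tested). miR-124-3p had 27.0% of lncRNA peaks and 21.1% of CDS and UTR peaks (odds ratio 1.38, adjusted p = 2.67e-14, Fisher's exact test). miR-26a-5p had 7.00% and 5.04% (exact adjusted p = 2.00e-05), miR-125b-5p 5.16% and 3.89% (adjusted p = 0.00339) and miR-129-2-3p 1.25% and 0.679% (adjusted p = 0.00318). Also higher were miR-204-5p (odds ratio 3.02), miR-9-3p (1.55), miR-125a-5p (1.66), miR-135b-5p (4.65), and the rare miR-150-5p, miR-329-3p and miR-423-5p, with 5, 7 and 3 lncRNA peaks. Some of these calls were lost under other settings: miR-26a-5p and miR-129-2-3p did not pass against 3′ UTR peaks alone (exact adjusted p = 0.124 and 0.119), and miR-129-2-3p did not pass with peaks at or above the median score (0.0554). miR-125b-5p did not pass with coding spans left out (exact adjusted p = 0.0738) or with each small RNA counted once per merged site (0.0817). No small RNA passed in reps 5-7 (28 tested, 4 at an unadjusted p under 0.05) or in excitatory neurons (11 tested, 1 at an unadjusted p under 0.05). In reps 5-7 the values for miR-124-3p lay the other way, at 21.8% of 55 lncRNA peaks and 34.1% of CDS and UTR peaks (exact adjusted p = 0.343), as did those for miR-26a-5p, at 5.45% and 8.18% (adjusted p = 1).

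The let-7 family made up most of the lower group. In reps 1-4 the names let-7a, b, c, d, e, f, g and i all had smaller shares on lncRNAs. Their odds ratios ran from 0.214 for let-7i-5p to 0.472 for let-7f-5p. In reps 5-7, let-7d, e, f and g had 1 lncRNA peak each, and let-7a, b, c and i had none. That 1 peak made 1.82% of lncRNA peaks, against 0.462, 0.420, 1.43 and 0.587% of CDS and UTR peaks. The values of let-7d, e, f and g thus lay the other way, each on 1 peak, and did not pass. In reps 1-4, let-7c-5p had 1.25% of lncRNA peaks and 3.50% of CDS and UTR peaks (exact adjusted p = 2.67e-14). Together the names with the let-7 seed had 5.30% of lncRNA peaks, 17.004% of CDS peaks and 10.6% of 3′ UTR peaks. Single genes differed: these names had 35 of 269 peaks on 1700020I14Rik (13.0%, 9.51 to 17.6%). Among the other leading genes they had from 2.38% on Lncpint to 5.90% on Meg3. The other 3 were miR-379-5p, at 0 of 3586 peaks, miR-127-3p and miR-138-5p.

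**Figure D4:**
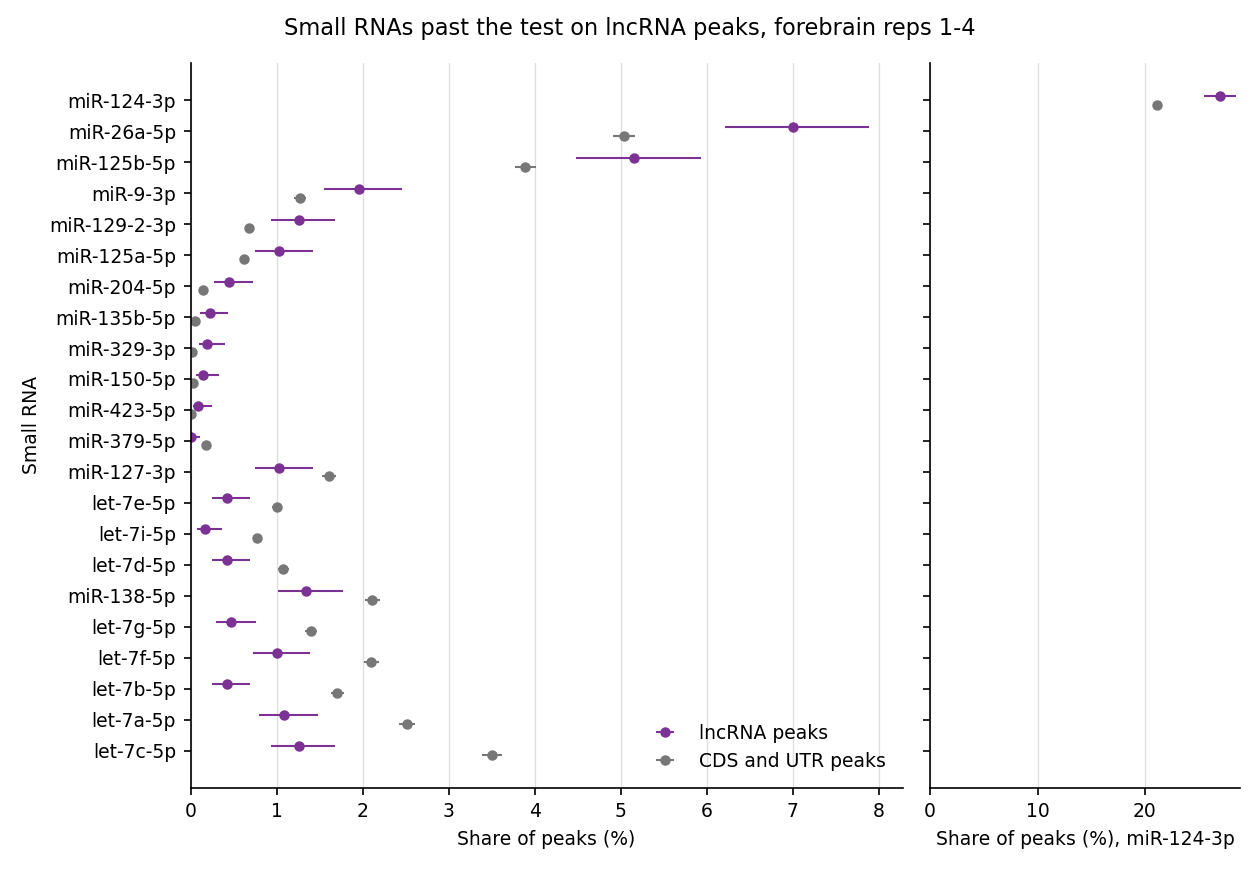
Share of peaks (x axis, %) of the 22 small RNAs past the test on lncRNA peaks (purple) and on CDS and UTR peaks (grey) in forebrain reps 1-4, with Wilson 95% intervals; miR-124-3p is drawn in the right panel on a wider scale. miR-124-3p has 27.0% of lncRNA and 21.1% of CDS and UTR peaks, and all let-7 names lie lower on lncRNAs.

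The set of peaks used for comparison changed the result. Against intron peaks alone, miR-124-3p was lower on lncRNAs (27.0% and 37.7%, -10.8 points, exact adjusted p = 6.59e-39), and none of the 8 let-7 names passed. Without Malat1, 4 small RNAs stayed higher (miR-124-3p, miR-26a-5p, miR-125b-5p and miR-329-3p), and miR-125a-5p and miR-150-5p turned to the other side without passing.

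The 5 genes with at least 100 peaks differed among themselves. This comparison, of each gene with all other lncRNA peaks of reps 1-4, was chosen after the values had been seen, with adjustment over 235 tests. miR-124-3p had 75 of 803 peaks on Malat1 (9.34%) and 32.1% elsewhere (adjusted p = 1.06e-40, Fisher's exact test), 11.9% on 1700020I14Rik (adjusted p = 6.07e-08) and 18.8% on Meg3 (adjusted p = 0.0254). Lncpint went the other way, with 45.8% of its peaks and 25.0% elsewhere (exact adjusted p = 7.01e-13). Gm28928 had more miR-9-5p peaks (15.5% and 7.87%, exact adjusted p = 1.05e-06). For Malat1 4.26% of the 47 small RNAs passed higher and 4.26% lower, and for 1700020I14Rik 4.26% and 4.26%, the higher ones being miR-222-3p and miR-30b-5p. On Malat1 miR-125a-5p was higher (2.62% and 0.575%, exact adjusted p = 0.000261).

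On Malat1 miR-124-3p led by number of peaks and by summed score, but its share relative to the other lncRNAs differed in direction between these measures. Its 75 peaks held 39.0% of Malat1's summed score, against 27.4% on the other lncRNAs. In reps 5-7, miR-124-3p had 10 of the 25 Malat1 peaks (40%, 23.4 to 59.3%). On 1700020I14Rik its score share was 13.3%, against 35.8% elsewhere.

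**Figure D5:**
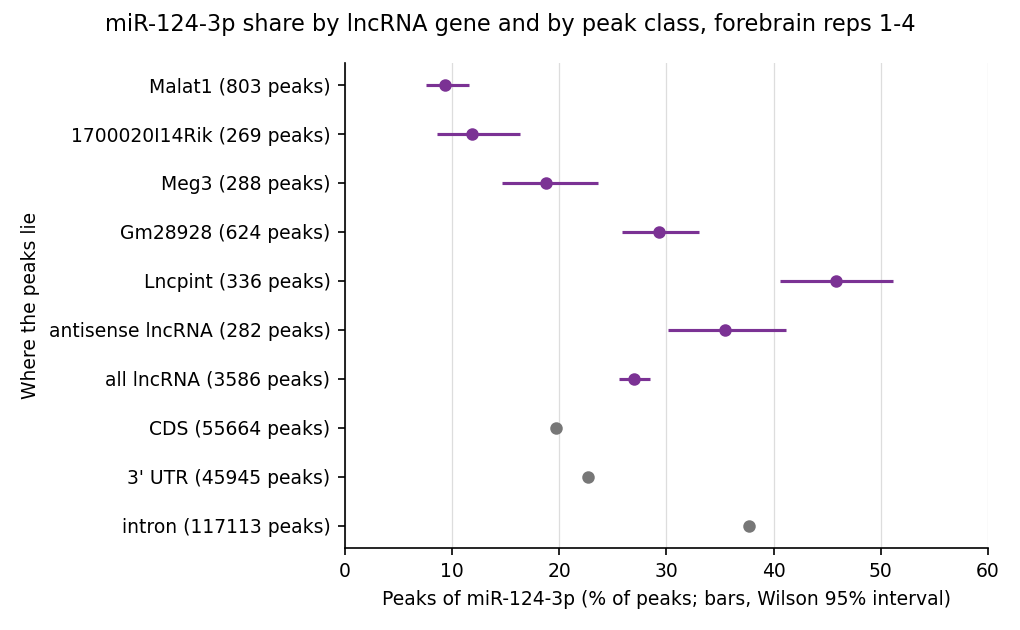
Share of peaks that are miR-124-3p (x axis, %, with Wilson 95% intervals) for 5 lncRNA genes, antisense and all lncRNA peaks (purple) and for CDS, 3′ UTR and intron peaks (grey) in forebrain reps 1-4. The genes run from 9.34% on Malat1 to 45.8% on Lncpint, and introns have 37.7%.

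A few peaks lay in a stretch whose sequence was at hand. On C130071C03Rik a miR-29a-3p peak (score 4, chr13:83728109-83728125, plus strand) lay within the RefSeq promoter window. The stretch chr13:83728104-83728130 is shown because it holds the complement of bases 2 to 7 of miR-29a-3p, GGTGCT, in capitals:
C130071C03Rik miR-29a-3p stretch: ccataagaattaagGGTGCTgaaaatg
The stretch was picked for this match, and among the peaks searched only 1 other, of miR-29c-3p at the same place, lay wholly in a promoter window and had a miRNA sequence to search with. As a description only, on that strand the same 6 letters are in 0.737% of 32851 promoter windows at the same offset and of the same length, 27 bases. In addition 9 peaks on 4 genes lay wholly within miRNA hairpins that the lncRNA hosts or overlaps. One, a let-7b-5p peak with a score of 7 on Gm27028, is shown with the peak in capitals because it covers most of miR-30c-5p itself (chr1:23291708-23291737, plus strand):
Gm27028 let-7b-5p peak: agauaUUGUAAACAUCCUACACUCUcagcu

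Of the named groups of lncRNAs, 5 of 12 nuclear or chromatin-linked RNAs had a peak of these classes in reps 1-4 (889 peaks), mostly Malat1, with Kcnq1ot1 (35), Ftx (24), an RNA of the X-inactivation centre, Neat1 (20), the scaffold of paraspeckles, and Pvt1 (7). Of imprinted RNAs 4 of 9 did (295 peaks, 288 of them Meg3). Of brain-expressed RNAs 9 of 18 did (148 peaks, 54 of them on Gm26917 and 41 on C130071C03Rik). Whether Gm26917 belongs under that name was not tested. Of miRNA host RNAs 4 of 12 did (64 peaks, with the same 41 of C130071C03Rik counted again). The list named cytoplasmic or miRNA-binding had peaks on 4 of 17 names (607 peaks). Of these, 336 were on Lncpint, also entered as Linc-pint with 0, and 269 on 1700020I14Rik. Whether Lncpint belongs under that name was not tested. Other known lncRNAs had peaks under other classes and are not counted above: Snhg14 219, Mir99ahg 78, Rian 59 and Sox2ot 42 as processed transcripts, and Peg13 47 as sense intronic. Xist and Cdr1os had 0 under these names in any class of reps 1-4. Peaks at these loci that are annotated as intergenic or under another name were not searched.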

How the data were processed

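Ago-CLIP chimeric reads of mouse forebrain were deposited as 4 annotated peak lists. Per the file headers and calling summaries, the authors called peaks on mm10 over the pooled libraries of each group, with at least 3 reads and 2 libraries per peak, and mm10 is also named in the submitters' processing notes. No aligner or caller is named in the sources at hand. Each peak's deposited score is a whole number made by the authors, with no stated definition. Sequencing depth is known only as a range from the labels, so precision follows from peak numbers, as Wilson 95% intervals, and beside a count of 0 stands the share that 3 peaks would make.

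From these lists, peaks were counted per class, gene and small RNA in Python 3.11.15 with pandas 2.3.3, scipy 1.17.1 and statsmodels 0.14.6. Shares were compared by two-sided Fisher's exact test for features with at least 10 peaks in both sets together, with Benjamini-Hochberg adjustment over the whole table and a threshold of 0.05. Neighbouring peaks are not independent. The test was tried on simulated lists whose peaks were drawn independently, so the trial does not cover this dependence. The genes named were the leading ones of each list and class, those past a test and those in all 3 lists. Members, lists and tests were chosen with earlier results of these data known. RefSeq tables (GRCm38.p6) gave names (127 of 211 genes by symbol, 9 by synonym), spans and sequences, and the strand of 79.9% of coding genes. Seed matches at peaks were planned but need a genome, which was not used here.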

Additional observations from a re-analysis of the deposited data

How the results depend on the processing

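No paired analysis was possible because each list pools its libraries and its columns carry no replicate numbers, and for the same reason leaving out single libraries was not run. The seed-match window and the 7-base match were not run, since they need a genome. The alternatives without coding spans, with each small RNA once per merged site and with summed scores of small RNAs, and those of the comparisons between single genes, were chosen after seeing the data. The cause of each change was not tested.

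The lncRNA share of excitatory neurons was lower under every alternative tried, but did not pass with peaks at or above the median score (-1.06 points against reps 5-7 and -1.08 against reps 1-4), with merged sites (-0.855 against reps 1-4) or without coding spans (-0.696 against reps 1-4). For reps 5-7 against reps 1-4 the difference was -0.0260 with the median score, -0.609 against the highest-scoring peaks, -0.632 by summed score and +0.408 (adjusted p = 0.0473, Fisher's exact test) without coding spans. The lncRNA genes higher in reps 5-7 numbered 1 with the median score, 0 against the highest-scoring peaks and 1 without intron peaks. The genes lower numbered 0 with the median score, 0 against the highest-scoring peaks and 0 without rRNA and Gm42418. In excitatory neurons against reps 1-4, Gm26917 turned to -0.0340 points with the median score and 1700020I14Rik to -0.783 against the highest-scoring peaks. Malat1 in reps 5-7 turned to -0.609 there.

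Against 3′ UTR peaks alone, 5 small RNAs were higher and 7 lower, with miR-127-3p turned to +0.0872 points. Against intron peaks alone, 27 were higher and 3 lower. None of the 3 was among the 11 called lower against CDS and UTR peaks. miR-124-3p, called higher against CDS and UTR peaks, was among the 3 lower against intron peaks. There miR-124-3p turned to -10.8, miR-26a-5p to -1.67 and miR-9-3p to -0.384, and miR-138-5p to 0.497, miR-127-3p to 0.350, let-7a-5p to 0.250, let-7e-5p to 0.218, let-7d-5p to 0.125, let-7f-5p to 0.109, let-7g-5p to 0.0958, let-7i-5p to 0.0631 and let-7b-5p to 0.0366. Without Malat1, 4 were higher, and miR-125a-5p turned to -0.0484 and miR-150-5p to -0.0260. Recurrence of reps 5-7 peaks with any small RNA was +2.17 points on lncRNAs. Pairs of small RNA and gene fell to 7 with the median score, against 12, and by summed score miR-124-3p on Malat1 turned to 11.6 points and miR-30b-5p to -0.0917. Of the remaining values, 44 that answer a comparison and 165 for single genes or small RNAs counted as unchanged, and 43 single ones kept the direction without passing. For a tested value, unchanged means the same direction and the same side of the threshold. For a number of calls it means only a similar number. With the median score, 9 small RNAs were higher against 11 in the main setting, with 6 names in both. Summed scores have no test, and were judged by direction or by the interval of the peak share.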
